A study of Mus musculus with 6 samples.

Results

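The proteasome genes described here are the rows of the deposited table whose symbol is Psma, Psmb, Psmc or Psmd followed by a number, leaving out the immunoproteasome genes Psmb8, Psmb9 and Psmb10. The rule used names only and found 36 of 21958 gene rows, 16 for the 20S core (Psma and Psmb) and 20 for the 19S regulatory particle (Psmc and Psmd). The study sequenced bulk RNA of RAW264.7, a macrophage-like mouse line, in 2 groups of 3 libraries. The tested libraries were of cells given lipopolysaccharide (LPS) and cultured together with BMSCs, and the libraries they were set against were of cells given LPS without BMSCs. Both groups carried LPS, so no value below is a response to LPS. The design text asks how BMSCs and bFGF on PCL scaffolds bear on inflammation, whereas the sample titles name only co-culture, without the species of the BMSCs, the dose of LPS or the culture time. LPS replicate 3 is RAW264.9 in its title and RAW264.7 in its tag, and was kept.

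The proteasome is the protease that degrades ubiquitin-tagged proteins in the cytosol and nucleus. Its 20S core is a barrel of stacked rings, the outer ones of alpha subunits (Psma) that gate the channel and the inner ones of beta subunits (Psmb), some of which carry the cutting sites. The 19S particle caps the barrel. Its base holds a ring of ATPases (Psmc) that unfold substrates, and its lid and other Psmd subunits bind ubiquitin chains and remove them. In macrophages the proteasome also degrades the inhibitors that hold NF-kB in the cytoplasm and makes peptides for MHC class I, and interferon exchanges the catalytic beta subunits for the immunoproteasome forms.

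Total counts were 19720727 to 21964252 in the co-culture libraries and 17716460 to 22539884 in the LPS libraries. All 10 macrophage markers were tested, of which 6 were higher, 1 (Ptprc) was lower and 3 (Adgre1, Csf1r and Itgam) did not pass. With a smooth trend in gene length and GC content taken out (the offsets below), Lyz2, Cd14 and Fcgr3 stayed higher by either length used. Cd68 was then called lower by either (-0.25 and -0.12), and Tyrobp lower by the table's length only (-0.14). For Spi1, Ptprc, Adgre1, Csf1r and Itgam the call depended on the length used. The 10 macrophage markers summed to 26200 to 29000 CPM in co-culture, against 16800 to 17200 CPM with LPS alone, mostly from Lyz2 and Cd14. Of 13 stromal markers, 8 had at most 3 counts in every library (Col1a1, Col1a2, Col3a1, Pdgfra, Thy1, Nt5e, Lepr and Cxcl12). Col1a2, Col3a1, Thy1 and Cxcl12 had none at all, and the 13 summed to 27.6 to 30 CPM in co-culture, against 20 to 20.4 CPM with LPS, mostly from Acta2 and Eng. Of the 4 stromal markers tested, Acta2 was called higher (1.8-fold, adjusted p 3.43e-05 in edgeR) and Lum lower, both under the offsets too. The part of these markers in the results below was not tested. Co-culture replicate 1 differed from its fellow replicates by a chi-square per degree of freedom of 15.8 and 26.8, against 5.16 between the other two and 1.71 to 2.11 between LPS libraries. In bulk RNA, a change in the share of cells cannot be told apart from a change in RNA per cell.

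With co-culture, most genes of both proteasome particles rose by less than 2-fold. In the 20S, 13 of 15 tested genes rose, none fell and 2 did not pass, with a median log2 fold change of 0.66. In the 19S, 17 of 20 rose, 1 fell and 2 did not pass, with a median of 0.61. Of all 11103 tested genes, 37.5% rose and 38.0% fell, and their median was 0.001. Calls are at a Benjamini-Hochberg adjusted p of 0.05 over all tested genes in edgeR's quasi-likelihood test on counts scaled by TMM, and levels in CPM (counts scaled for library size) are TMM-scaled. In 15 of 15 20S genes and 17 of 20 19S genes, each co-culture library was above each LPS library, and in 1 19S gene below. Among all tested genes the co-culture libraries lay above for 39.8% and below for 40.4%. Scaled by library totals only, 11 20S genes rose and none fell (median 0.48), and 16 19S genes rose and 3 fell (median 0.43), against 29.0% higher and 46.7% lower among all genes. That scaling put the median of all genes at -0.177, and 38.3% of all calls were then higher, against 49.6% with TMM. The size of the rise depended on the handling of gene length and GC content: with a smooth trend in both taken out, the medians were 0.41 for the 20S and 0.41 for the 19S with the table's gene length, and 0.18 and 0.36 with the length of the longest coding transcript.

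**Figure D1:**
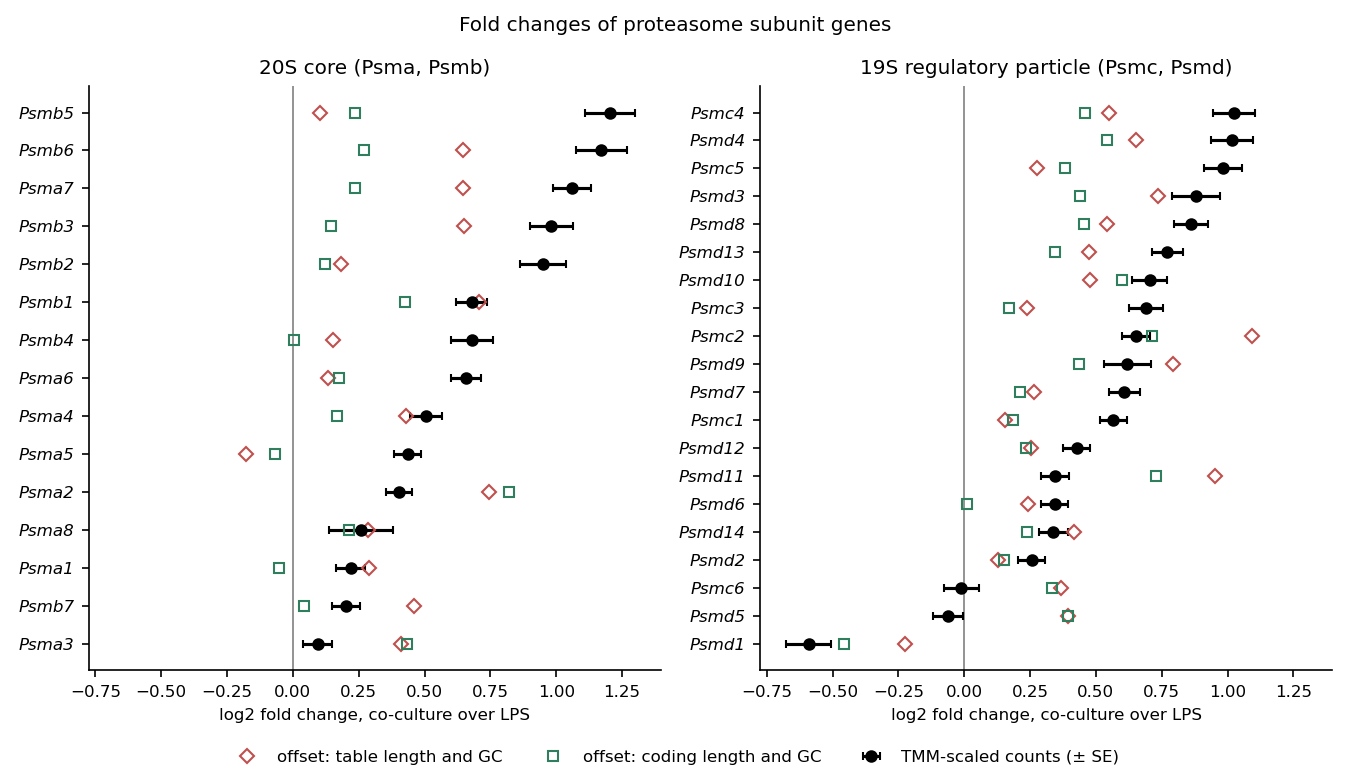
Log2 fold changes of the 15 tested 20S genes (left) and the 20 tested 19S genes (right), co-culture over LPS. Black points are TMM-scaled counts with their SE, and open marks are the same fit with a length and GC trend removed, by the table's length (diamonds) or the coding transcript's length (squares). Psmd1 lies below 0 in all 3, while Psmb5 and Psmb6, the highest 20S genes on TMM-scaled counts, are nearer to 0 in both others.

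To show what lies upstream of some genes that moved, the 250 bases before the RefSeq start (GRCm38.p6) are given. They are those of the 2 largest rises in the 20S, of the ubiquitin receptor gene Psmd4, and of Psmd1, which fell. Psmd4 (log2 fold change 1.017) was not the largest rise of the regulatory particle, which was that of Psmc4 (1.025). Capitals mark TGANNNNGC and CCAAT, the NF-Y box, on either strand. TGANNNNGC is a loose form of the core of the antioxidant response element, which factors of the NRF family bind. Each sequence shown holds 1 match. The windows of Psmc4 and Psmc5, which also rose, hold none and are not shown. The sequences shown therefore do not tell how common a match is among genes that moved. The windows of Psmd1 and Psmb5 reach past the GENCODE M21 starts of those genes, which lie upstream of the RefSeq starts. The match of Psmd1 lies after its GENCODE M21 start, so by that annotation it is inside the gene.
Psmb5 (chr14:54617996-54618245, minus strand): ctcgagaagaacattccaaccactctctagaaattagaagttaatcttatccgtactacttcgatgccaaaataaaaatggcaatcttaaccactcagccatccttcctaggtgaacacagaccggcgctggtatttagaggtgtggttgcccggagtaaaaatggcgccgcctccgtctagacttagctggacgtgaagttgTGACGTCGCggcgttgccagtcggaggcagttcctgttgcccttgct
Psmb6 (chr11:70525107-70525356, plus strand): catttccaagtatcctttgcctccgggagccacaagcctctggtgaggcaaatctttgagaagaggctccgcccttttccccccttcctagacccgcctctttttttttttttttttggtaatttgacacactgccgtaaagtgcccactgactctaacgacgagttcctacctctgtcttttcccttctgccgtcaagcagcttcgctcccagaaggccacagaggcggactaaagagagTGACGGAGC
Psmd4 (chr3:95042615-95042864, minus strand): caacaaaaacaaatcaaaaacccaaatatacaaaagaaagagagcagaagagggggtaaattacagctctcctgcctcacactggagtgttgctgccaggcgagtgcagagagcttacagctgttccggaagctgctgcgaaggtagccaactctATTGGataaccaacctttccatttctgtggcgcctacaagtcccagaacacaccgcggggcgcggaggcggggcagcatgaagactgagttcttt
Psmd1 (chr1:86064369-86064618, plus strand): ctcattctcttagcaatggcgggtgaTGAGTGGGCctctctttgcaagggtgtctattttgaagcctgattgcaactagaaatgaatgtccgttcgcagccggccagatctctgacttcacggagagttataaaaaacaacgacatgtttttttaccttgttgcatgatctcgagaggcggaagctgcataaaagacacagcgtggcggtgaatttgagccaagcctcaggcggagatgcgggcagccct

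RefSeq promoters were matched for 12 of the 16 20S genes and 17 of the 20 19S genes. In the 250 bases before the start, TGANNNNGC was found in 6 of 12 20S genes (50%) and 6 of 17 19S genes (35.3%). It was in 38.7% of all 27025 genes with a promoter and in 41.5% of the 8916 tested ones. CCAAT was found in 7 of 12 20S genes (58.3%) and 5 of 17 19S genes (29.4%), against 37.5% and 41.2%. The 20S counts include Psmb11, which was not tested and holds both. The full TGACTCAGC was in none of these genes, and in 0.426% of all genes with a promoter. TGANNNNGC was present both in Psmb5 (TGACGTCGC) and Psmb6 (TGACGGAGC), which rose, and in Psmd1 (TGAGTGGGC), which fell. These matches are letters in a window and were not tested as sites.

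Among the 3 genes for the catalytic subunits, Psmb5 and Psmb6 rose more than 2-fold and Psmb7 rose 1.15-fold. Psmb5 (ENSMUSG00000022193, chr14:54614119-54618022, minus strand), the subunit with chymotrypsin-like activity, had 57.0, 52.5 and 44.9 CPM in co-culture, against 21.4, 22.7 and 22.9 CPM with LPS. Its lowest co-culture library was well above its highest LPS library, a 2.3-fold difference (log2 1.204, SE 0.09, adjusted p 3.02e-06 in edgeR). With the length and GC trend removed, its log2 fold change was 0.10 with the table's length, where it did not pass (adjusted p 0.164), and 0.24 with the coding length, where it did (0.00497). Psmb6 (ENSMUSG00000018286, chr11:70525367-70527858, plus strand), the caspase-like subunit, had 439, 357.8 and 334.1 CPM in co-culture, against 160.4, 175.4 and 166.2 CPM with LPS. Each co-culture library was far above the LPS libraries, replicate 1 furthest, and the difference was 2.25-fold (log2 1.17, SE 0.10, adjusted p 3.63e-06 in edgeR). It was 0.65 and 0.27 under the offsets by table and coding length, and was called in both. Psmb7 (ENSMUSG00000026750), the trypsin-like subunit, had 125.6, 125.4 and 130.8 CPM in co-culture, against 108.5, 114.3 and 108.9 CPM with LPS. These groups did not overlap but stood close together (log2 0.20, SE 0.05, adjusted p 0.00562 in edgeR), and the call was lost when counts were scaled by library totals only (0.025) and with the coding length offset (0.04). GENCODE M21 lists 4 pseudogenes named after these genes (Psmb5-ps, Psmb6-ps, Psmb6-ps2 and Psmb7-ps2), so reads could be divided between copies.

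The other beta ring genes all rose. Psmb3 was 1.97-fold and Psmb2 1.93-fold higher, and Psmb1 and Psmb4 were each 1.6-fold higher, all 4 structural subunits with no cutting site of their own. Over the 7 tested beta genes the median log2 fold change was 0.95, and 0.46 or 0.14 with the trend removed by table or coding length. Psmb4 had 497.8, 435.4 and 398.7 CPM in co-culture, against 274.5, 286.5 and 270.1 CPM with LPS, and its log2 fold change of 0.68 was 0.15 and 0.003 under the offsets. Psmb1 kept a log2 fold change of 0.71 and 0.42. Psmb11, whose product replaces the chymotrypsin-like subunit in the thymus cortex, had 0, 0 and 2 counts in co-culture and 0, 0 and 3 with LPS. It was at or under the floor of 3 counts in each library and was not tested.

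**Figure D2:**
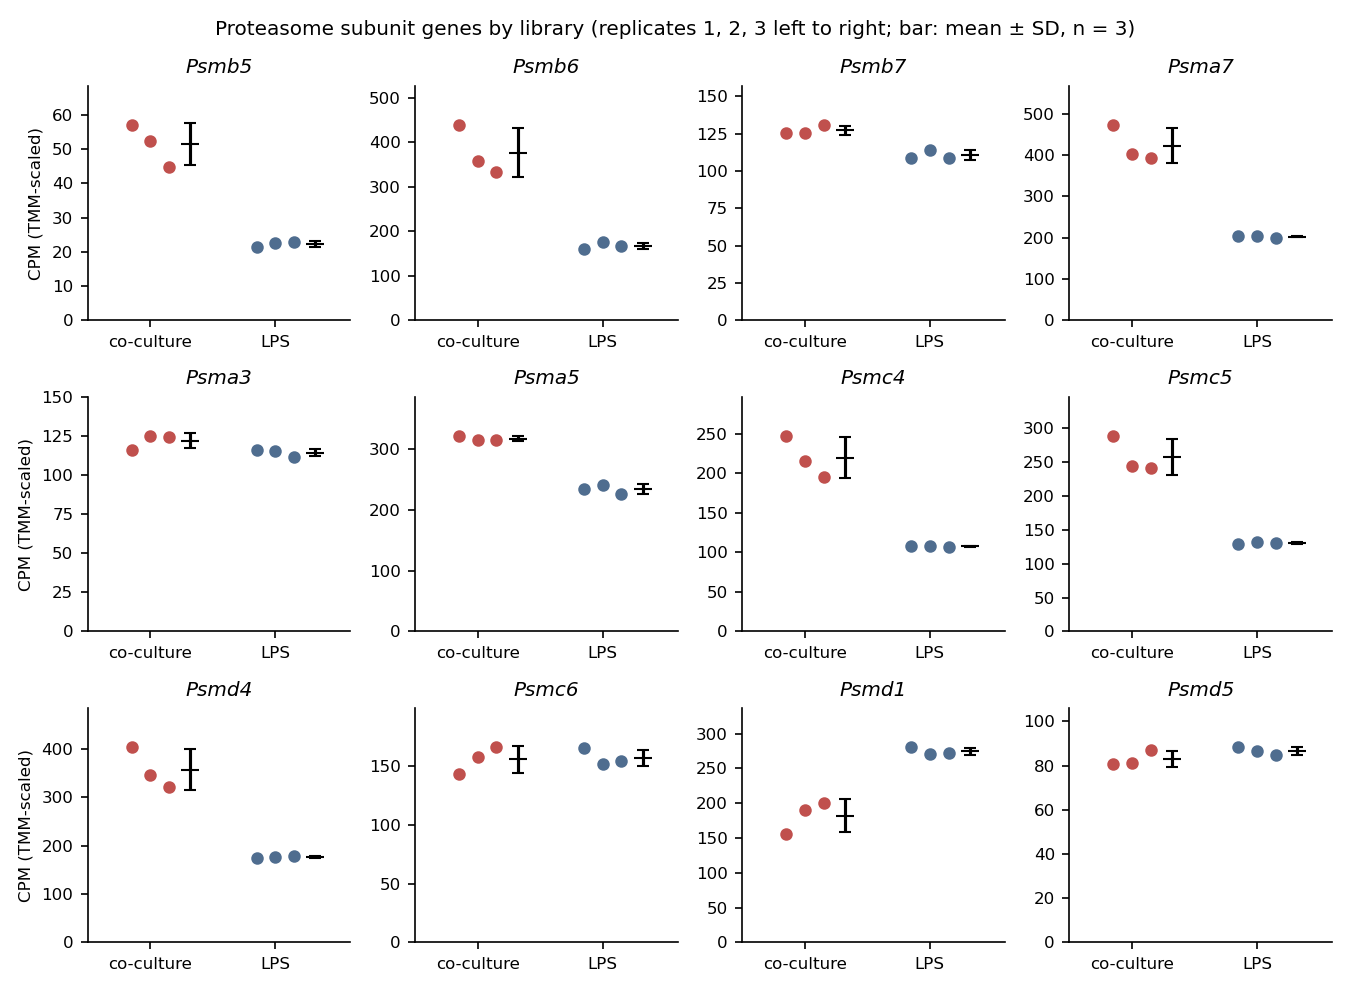
TMM-scaled CPM of 12 subunit genes in each library, with co-culture on the left of each panel and LPS on the right, and the mean and SD of 3 libraries beside the points. Groups stand apart for the genes of the upper row, co-culture lies below LPS for Psmd1, and the groups overlap for Psmc6 and Psmd5.

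Among alpha ring genes, 6 of 8 rose and 2 did not pass, with a median of 0.42. Psma7 rose most, at 472.7, 403.2 and 393.7 CPM in co-culture, against 204.1, 204.2 and 200.6 CPM with LPS. Its groups were clearly apart and the LPS libraries nearly equal (2.09-fold, log2 1.06, SE 0.07, adjusted p 1.65e-06 in edgeR). The offsets left it at 0.65 and 0.24, both called. Psma6 was 1.58-fold higher, Psma4 1.42-fold, Psma5 1.35-fold, Psma2 1.32-fold and Psma1 1.16-fold. The call of Psma1 was lost on library totals (0.04) and with the coding length offset (-0.05). Psma5 was the 1 member called higher here and lower in another fit. It had 321.4, 314.5 and 314.3 CPM in co-culture, against 235.0, 241.5 and 225.7 CPM with LPS. Tight in both groups and not overlapping on this scale, it had a log2 fold change of 0.44, but -0.18 (adjusted p 0.00321 in edgeR) with the table's length in the offset and -0.07 (0.159) with the coding length. Psma2 moved the other way, with 0.74 and 0.82 under the offsets. Psma3 had 116.4, 125.1 and 124.8 CPM in co-culture, against 116.2, 115.3 and 111.9 CPM with LPS. Its groups nearly touched, and it did not pass (log2 0.09, SE 0.06, adjusted p 0.144 in edgeR), but it passed with 0.41 and 0.44 under the offsets, and without co-culture replicate 1 (log2 fold change of Psma3 0.14, adjusted p 0.00717 in edgeR). Psma8, a form of the Psma7 subunit used in the testis, was low, at 11.2, 10.9 and 11.5 CPM in co-culture, against 9.66, 10.7 and 7.85 CPM with LPS. It did not pass (log2 0.26, SE 0.12, adjusted p 0.0765 in edgeR). It passed without LPS replicate 2 (log2 fold change of Psma8 0.36, adjusted p 0.0354 in edgeR). With the table's length in the offset it passed narrowly (0.28, adjusted p 0.0474 in edgeR), and with the coding length it did not (0.21, 0.12). Since Psma8 is a close paralog of Psma7, its reads are uncertain.

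In the 19S base, 5 of the 6 ATPase genes rose and 1 did not pass, with a median of 0.67. Psmc4 had 247.0, 215.5 and 195.6 CPM in co-culture, against 108.4, 107.9 and 107.3 CPM with LPS, a 2.03-fold rise (log2 1.03, SE 0.08, adjusted p 3.04e-06 in edgeR). Psmc5 had 288.5, 244.9 and 240.8 CPM in co-culture, against 129.0, 132.5 and 130.5 CPM with LPS, 1.98-fold higher. In both, the LPS libraries were nearly equal and co-culture replicate 1 was the highest. Under the offsets Psmc4 kept 0.55 and 0.46, and Psmc5 0.28 and 0.38. Psmc3 was 1.61-fold, Psmc2 1.57-fold and Psmc1 1.48-fold higher. Psmc6 had 143.0, 157.8 and 166.1 CPM in co-culture, against 164.9, 151.5 and 154.2 CPM with LPS. Its groups overlapped (log2 -0.01, SE 0.07, adjusted p 0.885 in edgeR), and with the trend removed it was called higher (0.37 and 0.34). On library totals it was called lower, at -0.19. At 37.0%, it has the lowest GC content of the tested members.

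The remaining base subunits moved apart. Psmd4, which binds ubiquitin chains, had 404.2, 346.7 and 322.4 CPM in co-culture, against 174.9, 176.6 and 179.0 CPM with LPS. All co-culture libraries were far above the LPS libraries (2.02-fold, log2 1.02, SE 0.08, adjusted p 3.02e-06 in edgeR), and the offsets left 0.65 and 0.54. Psmd2, a scaffold that docks ubiquitin-carrying shuttles, was 1.19-fold higher, but did not pass on library totals (0.08). Psmd1, the scaffold that holds the ubiquitin receptor Adrm1, was the 1 member that fell. Psmd1 (ENSMUSG00000026229, chr1:86064387-86139151, plus strand) had 156.0, 190.7 and 200.3 CPM in co-culture, against 280.7, 271.1 and 272.0 CPM with LPS. Co-culture was lower in each library, with replicate 1 the lowest, and the level was 1.51-fold lower (log2 -0.59, SE 0.09, adjusted p 0.000129 in edgeR). It stayed lower under the offsets, by -0.22 (0.00371) and -0.46 (2.42e-05). In GENCODE M21 its exons overlap those of Gm21972 on the same strand and of Htr2b on the other, so some of its reads are uncertain.

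All 8 genes of the lid rose, with a median of 0.52, and of 0.45 and 0.29 under the offsets by table and coding length. Psmd3 was 1.84-fold higher, Psmd8 1.82-fold, Psmd13 1.71-fold and Psmd7 1.52-fold. Psmd12 was 1.34-fold higher, Psmd6 and Psmd11 1.27-fold each, and Psmd14, the enzyme that cuts ubiquitin chains off substrates, 1.26-fold (198.5, 210.3 and 219.7 CPM in co-culture, against 164.7, 168.4 and 163.9 CPM with LPS). Psmd14 kept 0.42 and 0.24 under the offsets, from a log2 fold change of 0.34. Psmd11 grew to 0.95 and 0.73 with the trend removed, while Psmd6 went down to 0.24 and 0.01 and lost its call with the coding length (adjusted p 0.838 in edgeR).

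The genes that the rule takes in as assembly chaperones of the base, which are not part of the finished particle, were not of a kind. Psmd10 (gankyrin) rose 1.63-fold and Psmd9 1.54-fold. Psmd5 had 80.8, 81.3 and 87.0 CPM in co-culture, against 88.4, 86.5 and 84.8 CPM with LPS. Its groups overlapped (log2 -0.06, SE 0.06, adjusted p 0.354 in edgeR), it was called lower on library totals (-0.24), and it was called higher with either offset (0.40 and 0.39). Of the 3, Psmd5 has by far the longest coding transcript, at 4397 bases.

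Across all tested genes, short and GC-rich genes had higher fold changes. Spearman's rho of log2 fold change was -0.55 with coding transcript length over 11051 genes and 0.42 with GC content over 11072, given as descriptions across genes that share 6 libraries. The tested 20S genes had a median coding transcript of 1165 bases and the 19S genes 1887, against 3095 for all tested genes. Within the 20S the rho was -0.71 with coding length and 0.91 with GC content (15 genes), and within the 19S -0.50 and 0.66 (20 genes). With the table's length in the offset, 13 of 15 20S genes were higher and 1 lower, and 19 of 20 19S genes were higher and 1 lower, against 35.4% higher and 36.0% lower among all genes. With the coding length, 10 of 15 20S genes were higher and none lower, and 18 of 20 19S genes were higher and 1 lower, against 33.0% and 35.1%. Called higher in all 3 fits were 8 of 15 20S genes and 16 of 20 19S genes, against 22.7% of all genes. How far the trend is technical was not tested.

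**Figure D3:**
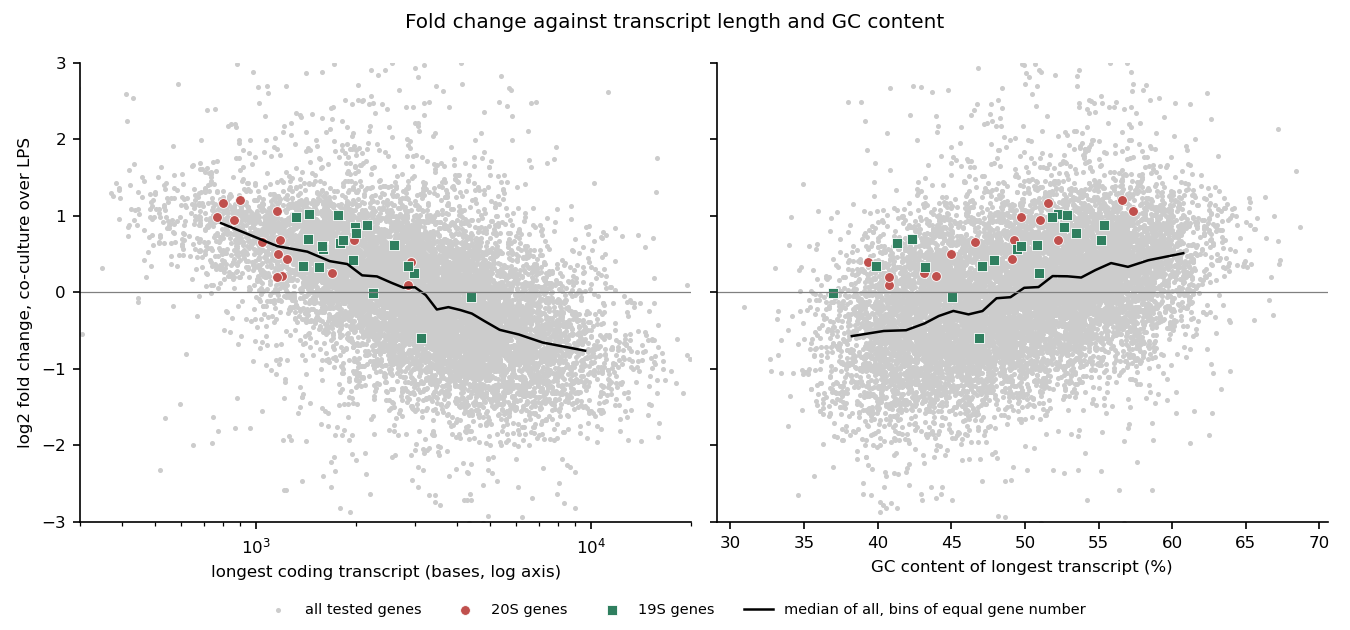
Log2 fold change, co-culture over LPS, against the length of the longest coding transcript (left, log axis) and the GC content of the longest transcript (right), for all tested genes in grey within the ranges drawn. Circles are 20S genes and squares 19S genes. The black line of medians falls with length and climbs with GC content, and in the left panel 20S genes lie on both sides of it, with Psmd1 below it.

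Co-culture replicate 1 was the highest co-culture library for 23 of 35 tested members, against 4521 of all 11103 tested genes. Taken from the mean of their group in log2 units, the co-culture replicates 1, 2 and 3 had median deviations of 0.09, -0.04 and -0.06 over the 20S genes and 0.06, -0.04 and -0.02 over the 19S genes. In the LPS libraries the medians lay between -0.03 and 0.02. For all tested genes the co-culture deviations were between -0.002 and 0.004. Without that library, 14 of 15 20S genes rose (median 0.60) and 17 of 20 19S genes rose and 1 fell (median 0.56), against 38.4% higher and 38.2% lower among all genes.

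Levels per length, which allow genes to be compared, differed widely between subunits that occur in equal numbers in the particle. They are given as FPKM, counts per length and library total, here over the longest coding transcript and scaled by library totals and not by TMM. Among the 14 core subunits other than Psma8 and Psmb11, Psma6 had the highest level, at 537.9 ± 17.9 FPKM in co-culture and 386 ± 4.27 FPKM with LPS (mean ± SD, n = 3 each). The lowest level in co-culture was that of Psma3, at 40.4 ± 2.57 FPKM against 42.8 ± 0.888 FPKM with LPS. This rank depends on length, as the coding transcript of Psma3 has 2846 bases, against a median of 1165 for the tested 20S genes. Without division by length, Psma3 had 122.1 CPM in co-culture, above Psmb5 at 51.5 CPM. By the table's length Psma3 was also lowest in co-culture, at 29.5 ± 1.88 FPKM. Psmb5 was lowest with LPS, at 53.7 ± 5.52 FPKM in co-culture and 26.4 ± 0.965 FPKM with LPS. By coding length, which was added after seeing the data, the catalytic genes stood in the order Psmb6, Psmb7, Psmb5 in both groups, with Psmb6 at 443 ± 53.9 FPKM in co-culture and 223 ± 10.2 FPKM with LPS, and Psmb7 at 103.1 ± 4.12 FPKM in co-culture and 101.3 ± 3.08 FPKM with LPS. The gaps between these 3 genes were wider than their SD in both groups. By the table's length Psmb5 instead stood above Psmb7 in co-culture, since the deposited FPKM of Psmb7 was 34.97 ± 1.40 in co-culture and 34.4 ± 1.04 with LPS. By coding length, the highest level was 13.4 ± 1.30 times the lowest in co-culture and 14.7 ± 0.379 times with LPS. By the table's length the order of the groups was the other way, at 15.5 ± 1.5 times in co-culture and 12.3 ± 0.321 times with LPS.

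In the 19S, without the assembly chaperones, the 17 subunits were closer to each other. The highest was 4.34 ± 0.747 times the lowest in co-culture and 3.01 ± 0.107 times with LPS. Psmc1 stood highest in co-culture, at 235.2 ± 4.51 FPKM against 179.8 ± 1.98 FPKM with LPS, and Psmd1 lowest, at 55.2 ± 8.21 FPKM in co-culture against 93.8 ± 1.82 FPKM with LPS. With LPS alone, Psmd3 was lowest, at 106 ± 12.6 FPKM in co-culture and 65.3 ± 1.71 FPKM with LPS. Psmd1 thus stood above Psmd3 with LPS and below it in co-culture. Summed deposited FPKM, which use the table's gene length, were 1889 ± 93.1 in co-culture and 1321 ± 24.8 with LPS for the 14 core subunits, a ratio of 1.43, and 1549 ± 44.8 in co-culture and 1159 ± 3.51 with LPS for the 17 subunits of the 19S, a ratio of 1.34.

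**Figure D4:**
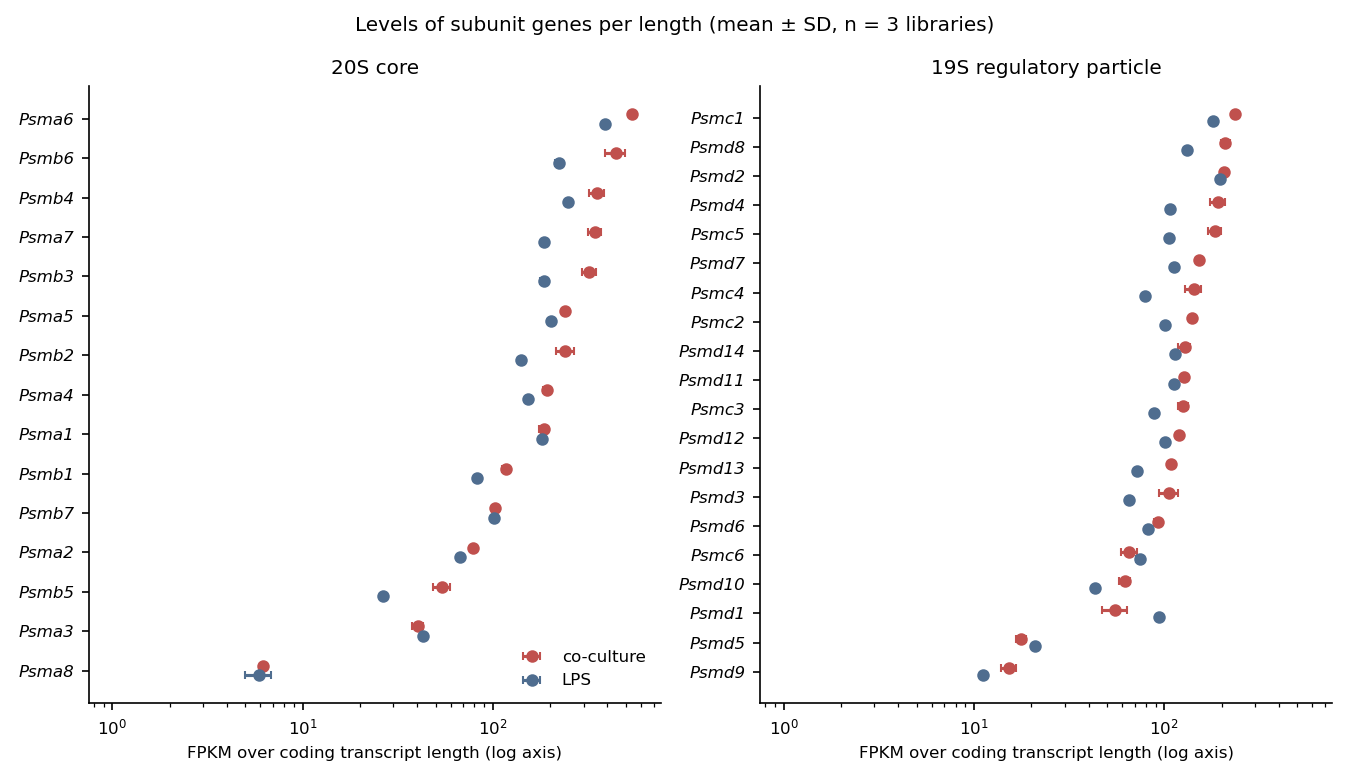
FPKM over the longest coding transcript for the tested 20S genes (left) and 19S genes (right) on a log axis, as the mean and SD of 3 co-culture libraries and 3 LPS libraries. Psma6 is highest in the core, Psma8 is far below the other core genes, and Psmd1 is the 19S gene furthest to the left of its LPS value.

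The immunoproteasome genes can be set against the subunits they replace. Psmb9, the counterpart of Psmb6, fell 1.18-fold (24.5 ± 1.72 CPM in co-culture, against 28.95 ± 2.22 CPM with LPS, adjusted p 0.0295 in edgeR). The log2 fold change of Psmb9 lost its call without co-culture replicate 2 or 3 or LPS replicate 1 or 2 (adjusted p 0.0789 to 0.121 in edgeR). Under both offsets Psmb9 was called lower (-0.51 and -0.89, adjusted p 6.67e-05 and 5.74e-07 in edgeR). The ratios given here use the table's gene length and not the coding length. The ratio of Psmb9 to Psmb6 in FPKM was 0.0305, 0.0351 and 0.0349 in co-culture, against 0.0939, 0.0901 and 0.0816 with LPS. That ratio was 2.64-fold lower in co-culture (two-sided exact permutation p 0.1, the smallest 3 against 3 libraries allow, and 0.15 adjusted over 3 ratios), and the log2 difference between the genes, -1.41, was -1.16 and -1.17 under the offsets. Psmb8 rose 1.68-fold (69.7 ± 9.72 CPM in co-culture, against 41.4 ± 2.53 CPM with LPS, adjusted p 7.07e-05 in edgeR), and its ratio to Psmb5 was 0.36 ± 0.021 in co-culture and 0.494 ± 0.0354 with LPS (exact permutation p 0.1, 0.15 adjusted), where the log2 difference of -0.45 became 0.38 and 0.01 under the offsets. Psmb10 did not pass (50.3 ± 9.58 CPM in co-culture, against 42.5 ± 1.57 CPM with LPS), and its ratio to Psmb7 was 0.794 ± 0.165 in co-culture and 0.772 ± 0.0503 with LPS (exact permutation p 1.0). The log2 difference between these genes, 0.04, became -0.92 and -0.54 under the offsets, where Psmb10 was called lower (-0.46 and -0.50, adjusted p 0.000183 and 6.07e-05 in edgeR). Without co-culture replicate 3, the log2 fold change of Psmb10 was called higher, at 0.36.

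Genes that assemble, regulate and feed the proteasome did not move together. Of 38 listed genes 37 were tested, Paaf1 not being analysed here, of which 19 rose, 12 fell and 6 did not pass, with a median of 0.24, and of 0.19 without co-culture replicate 1. The share of rises was 51.4% and of falls 32.4%, against 37.5% and 38.0% for all genes. On library totals 14 rose and 16 fell, against 29.0% higher and 46.7% lower among all genes. Without co-culture replicate 2, LPS replicate 1 or LPS replicate 2, 10 fell.

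The remaining 19S subunits in the list rose with the members. Sem1 was 2.11-fold higher (221.2 ± 25.5 CPM in co-culture, against 104.8 ± 5.37 CPM with LPS, adjusted p 2.86e-06 in edgeR) and the ubiquitin receptor Adrm1, which docks on the Psmd1 protein, 1.84-fold higher (179.4 ± 29.5 CPM in co-culture, against 97.7 ± 1.85 CPM with LPS). All 5 tested assembly factors rose as well. Pomp, which guides beta ring assembly, rose 1.49-fold (234.6 ± 4.95 CPM in co-culture, against 157.8 ± 9.04 CPM with LPS), with 0.67 and 0.74 under the offsets from a log2 fold change of 0.57. The core chaperones Psmg3, Psmg4, Psmg1 and Psmg2 rose 2.07-fold, 1.87-fold, 1.31-fold and 1.22-fold, but Psmg1 and Psmg4 were called lower under both offsets, Psmg2 in neither direction under either, and Psmg3 higher with the table's length (0.79) but not with the coding length (0.27). Of the 5, only Pomp was thus called higher with the coding length, and the median was then -0.09.

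Among activators, the PA28 genes Psme1 and Psme2, which interferon also induces, rose 1.72-fold and 1.79-fold, calls that were lost with the coding length offset (-0.05 and 0.02). The inhibitor gene Psmf1 rose 1.21-fold, a call that was lost on library totals and without LPS replicate 2. The nuclear activator genes Psme3 and Psme4 fell 1.10-fold and 1.48-fold. The log2 fold change of Psme3 lost its call without co-culture replicate 2 or without any 1 of the LPS libraries (adjusted p 0.0578 to 0.0904 in edgeR). Under both offsets Psme3 was called lower (-0.36 and -0.26, adjusted p 1.11e-05 and 0.0001 in edgeR). The log2 fold change of Psme4 was 0.004 and, called higher, 0.14 under the offsets. Of the enzymes bound to the proteasome, Txnl1 rose 1.52-fold, the ubiquitin ligase Ube3c fell 1.90-fold (64.5 ± 10.3 CPM in co-culture, against 122.6 ± 0.768 CPM with LPS), and Ecpas fell 1.29-fold. The deubiquitinases Usp14 and Uchl5 did not pass (log2 -0.13 and -0.04), and both were called higher under the offsets, as was Ecpas. Without co-culture replicate 3, Usp14 was called lower.

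Nfe2l1 encodes the NRF1 transcription factor that induces proteasome genes when proteasome activity is short, after release by Ngly1 and cleavage by the protease Ddi2. Nfe2l1 rose 1.19-fold (288.7 ± 8.32 CPM in co-culture, against 242.8 ± 2.67 CPM with LPS, adjusted p 0.00114 in edgeR), with 0.18 and 0.33 under the offsets, and did not pass on library totals (0.07). Ddi2 fell 2.28-fold (24.5 ± 0.674 CPM in co-culture, against 55.8 ± 1.96 CPM with LPS, adjusted p 5.15e-07 in edgeR), with log2 fold changes of -0.79 and -0.57 under the offsets. Nfe2l2, for the related factor NRF2, had a log2 fold change of 0.004, and Ngly1 one of -0.11, and neither passed. Ngly1 was called higher with the offsets.

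Genes that bring substrates to the proteasome moved in both directions. Of 9 shuttle and segregase genes, 3 rose (33.3%) and 5 fell (55.6%), against 37.5% and 38.0% of all tested genes. Those that rose were Ufd1 (1.56-fold), the segregase Vcp (1.25-fold) and Zfand5 (1.2-fold), and those that fell included the shuttles Ubqln2 (1.51-fold lower) and Rad23b (1.19-fold lower, not called under the offsets) and the Vcp cofactor Nploc4 (1.22-fold lower). The ubiquitin genes Rps27a and Ubb rose 2.12-fold and 1.75-fold, Rps27a reaching 1221 ± 138 CPM in co-culture, against 575.3 ± 13.4 CPM with LPS, and Ubb 587.5 ± 47.0 CPM in co-culture, against 335.3 ± 2.83 CPM with LPS (adjusted p 3.23e-06 in edgeR). Under the offsets the log2 fold change of 1.09 for Rps27a was 0.97 and 0.55, and that of 0.81 for Ubb was 0.15 and 0.21, all called. Rps27a encodes ubiquitin fused to a ribosomal protein. The ubiquitin-activating enzyme gene Uba1 rose 1.18-fold, and Uba6 fell 1.63-fold (74.3 ± 8.02 CPM in co-culture, against 121.4 ± 0.694 CPM with LPS), with 0.07 and, called higher, 0.27 under the offsets. The ubiquitin genes share near-identical repeats, so the division of reads among them is uncertain.

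**Figure D5:**
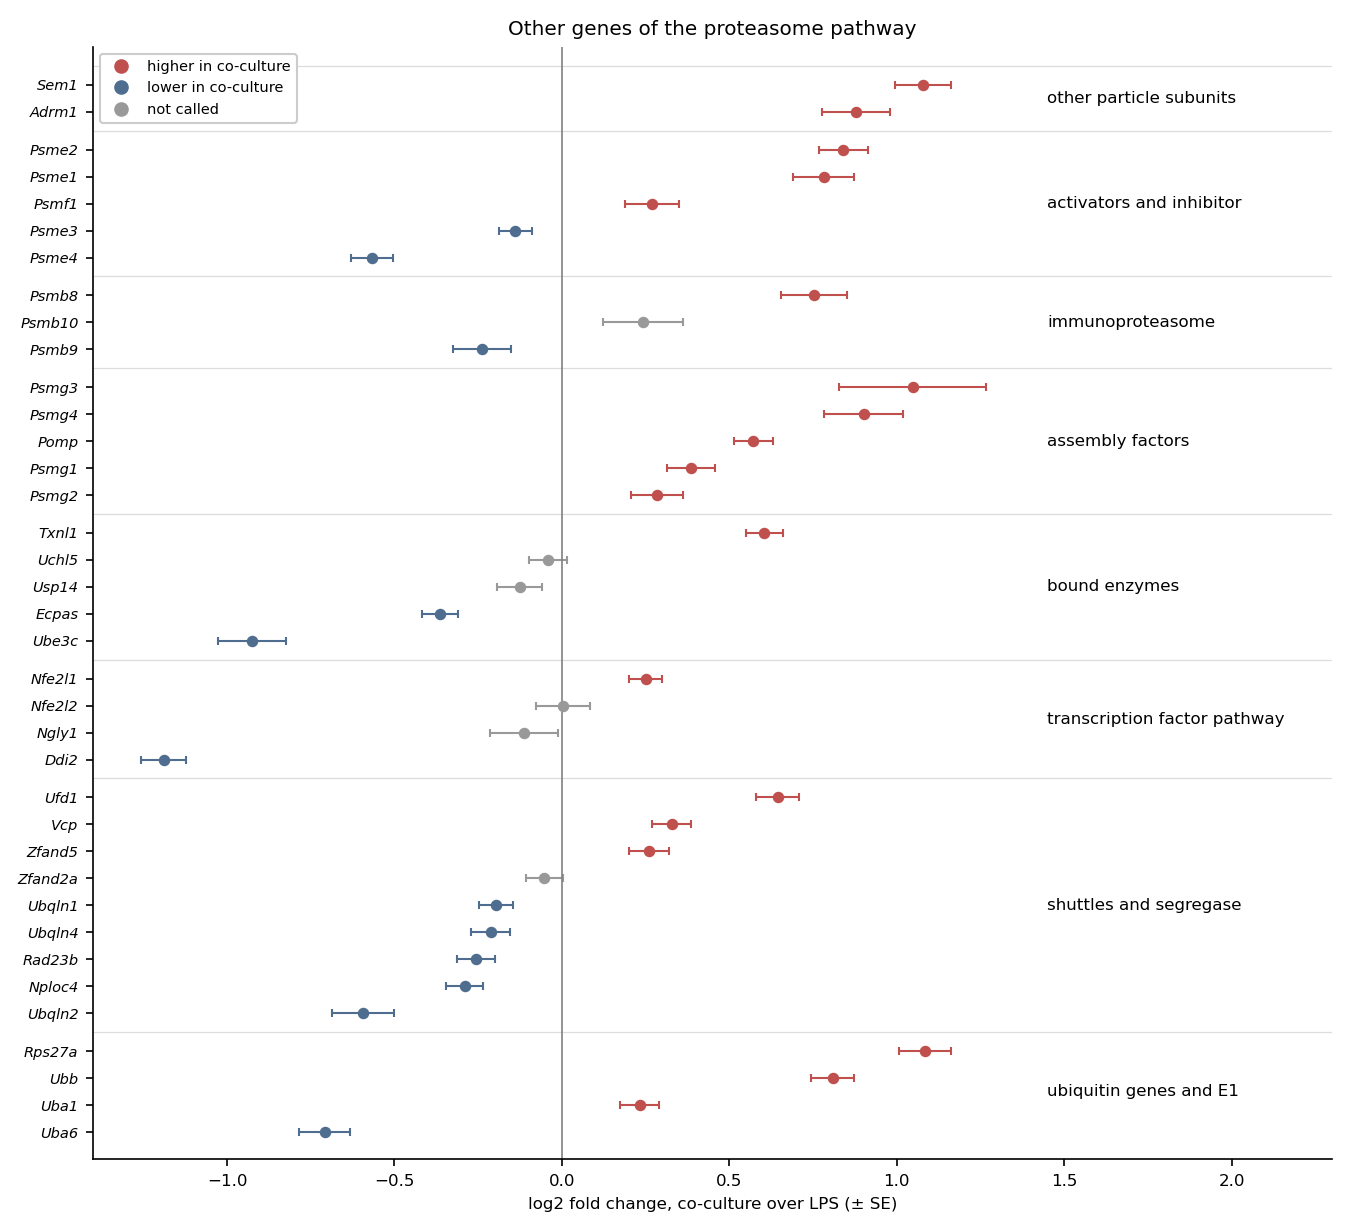
Log2 fold changes with SE, co-culture over LPS, of 37 other genes of the proteasome pathway on TMM-scaled counts, grouped by role. Red points were called higher in co-culture, blue points lower, and grey points did not pass. All assembly factors lie above 0, Ddi2 and Ube3c are the lowest, and the shuttle genes lie on both sides.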

How the data were processed

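The 6 libraries were grouped by their titles, which number them as biological replicates. No source says whether they came from separate cultures, so p-values measure the spread between these libraries, which may be technical. Per the labels' protocols, poly(A) RNA was selected and no step that marks strand is named. The authors deposited whole read counts per gene, not normalized, and FPKM per library, in 1 table. The submitters' processing notes name HISAT2 2.0.5 and mm10. For the counter, the annotation and the strand setting: not given in the sources used here.

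Counts were tested in R 4.3.3 with edgeR 4.0.16 (robust quasi-likelihood, TMM, its default filter by group, group as single term), which kept 11103 genes, and p was adjusted over all of them. The biological coefficient of variation was 7.055%. The scripts were tested on simulated data. Alternatives were RLE factors, library totals, DESeq2 1.42.0, limma 3.58.1 on log2(FPKM + 1) where the mean FPKM was at least 1, no filter or a minimum of 10 counts per library, the replicate number as a block, each library left out in turn, and per-library offsets from natural splines (5 degrees of freedom) in gene length and GC content. An offset and levels using the longest GENCODE M21 coding transcript, which is shorter than the table's length for every member but Psmb5, were added after seeing the data. The members, lists and tests were chosen with earlier results of these data known.

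Gene positions are those of GENCODE M21 (GRCm38). Exons of 9 members overlap another gene (Psma4, Psma5, Psmb5, Psmb7, Psmc3, Psmd1, Psmd3, Psmd9 and Psmd13), 8 of them one on the opposite strand, and without a known strand setting those reads cannot be told apart. Every member is named. Values per library follow a rule: the catalytic genes, the 3 highest and 2 lowest fold changes of each particle, members called against the rest of their particle, up to 6 members whose call differs with the planned offset, and untested members. Of other pathway genes the rule takes the 3 smallest p in each direction, Psmb8, Psmb9, Psmb10, Nfe2l1, Pomp and Adrm1. The library values of Psmb4 and Psmd14, and the remaining pathway genes, were picked after their values were seen. Some genes of the planned pathway list are not reported here and are left out of its counts. A count of 3, which is 0.133 to 0.169 CPM by library totals without TMM scaling, was the floor, and covers counting error only.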

Additional observations from a re-analysis of the deposited data

How the results depend on the processing

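Counts of 20S and of 19S genes called higher stayed within 1.5 times under the settings run. Library totals or limma on FPKM gave 3 lower 19S genes (Psmd1, Psmc6 and Psmd5), and the table-length offset, with or without the replicate block, gave 1 lower 20S gene (Psma5). The 20S median moved to 0.479 on library totals, 0.477 on FPKM, 0.573 with no filter, which adds Psmb11, 0.412 with the table-length offset (0.412 with the block too) and 0.176 with the coding length offset. The 19S median moved to 0.434, 0.404, 0.406 (0.406 with the block) and 0.362 under the same settings other than the filter, and lay between 0.561 and 0.651 when 1 library was left out. The direction changed for Psma1 (-0.054, coding length offset) and Psma3 (-0.084 on totals, -0.083 on FPKM). With the table-length offset, the same with the block, and the coding length offset, the log2 fold changes that turned were -0.177, -0.177 and -0.068 for Psma5, 0.368, 0.368 and 0.335 for Psmc6, 0.396, 0.396 and 0.394 for Psmd5, 0.004, 0.003 and 0.14 for Psme4, -0.459, -0.465 and -0.497 for Psmb10, -0.328, -0.327 and -0.336 for Psmg1, -0.067, -0.07 and -0.094 for Psmg2, -0.516, -0.521 and -0.352 for Psmg4, 0.61, 0.61 and 0.616 for Usp14, 0.195, 0.194 and 0.121 for Uchl5, 0.311, 0.308 and 0.368 for Ecpas, 0.505, 0.506 and 0.217 for Ngly1, 0.027, 0.027 and 0.043 for Rad23b, and 0.069, 0.068 and 0.267 for Uba6. Psme1 (-0.047) and Ubqln1 (0.002) turned with the coding length only. The log2 fold change of Nfe2l2 was -0.173 on totals, -0.173 on FPKM, -0.005 with no filter, -0.0 with the block and -0.008 with the coding length. Leaving out 1 library gave -0.054 to 0.056 for Psmc6, -0.059 to 0.007 for Uchl5 and -0.064 to 0.097 for Nfe2l2. It also gave calls to Psma3 (without co-culture replicate 1), Psma8 (without LPS replicate 2), Psmb10 and Usp14 (without co-culture replicate 3). It ended calls of Psmb9 and Psme3 (4 libraries each) and Psmf1 (LPS replicate 2). The cause of these shifts was not tested.

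Libraries with the same number in the 2 groups shared only that number: their deviations from the group means correlated at -0.0416, -0.0239 and 0.0402, and of the 6 libraries only LPS replicate 3 correlated best with its own number. With a replicate block, 13 20S genes were higher, and 17 19S genes were higher and 1 lower, with medians of 0.657 and 0.61, and Psme3 lost its call (adjusted p 0.0628). In all, 4070 genes were higher and 4147 lower.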
